A study of Homo sapiens with 2 samples.

Results

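The HOX genes are homeobox transcription factors that sit in 4 clusters, HOXA on chromosome 7, HOXB on chromosome 17, HOXC on chromosome 12 and HOXD on chromosome 2. For 38 HOX genes chosen by name, of 19974 protein-coding genes with a position in RefSeq (GRCh38), the peaks of 2 histone marks were read off: H3K4me1, found at enhancers and beside promoters, and H3K27ac, found at active enhancers and promoters. The assay was CUT&Tag: Tn5 transposase, tethered to an antibody, cuts DNA beside the marked nucleosome. The cells were C4-2B EnzR, that is, the human prostate cancer line C4-2B grown for at least 6 months with the androgen receptor inhibitor enzalutamide. The series was made to look at super-enhancers in this resistant line. It holds 1 library per antibody, from 100000 cells each and 14 PCR cycles, with no parental C4-2B, no untreated cells and no replicate among the samples used here. No test between conditions was therefore possible, and nothing below separates what belongs to resistance from what belongs to the line.

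Within a cluster the HOX genes are transcribed in one direction and are numbered by paralogue group from 1 to 13. In the embryo, low numbers are used early and towards the head and high numbers late and towards the tail, an order called collinearity. Trithorax proteins keep HOX genes on and Polycomb proteins keep them off, and adult tissues retain part of the pattern of their body region. The prostate forms in the posterior region, and HOXB13, a paralogue 13 gene set apart from the rest of its cluster, is a lineage factor of prostate epithelium that binds DNA with the androgen receptor.

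Peak depth is given as the summit pileup, the number of fragments stacked at the highest point of a peak, with an exact Poisson 95% interval. A gene had a mark at its start when a peak lay within 1 kb of the 5 prime end of its RefSeq span, and in its window when a peak lay on the gene or within 5 kb of it. Intervals cover counting error only, and fragments of an amplified library without molecular identifiers are not independent molecules. The H3K27ac list had 64784 peaks with a median summit of 13 fragments, and the H3K4me1 list had 139511 peaks with a median of 18. All 8 prostate luminal markers listed (among them KLK3 and FOXA1) had both marks at the start or either end, against 0 of 3 basal and 0 of 3 stromal markers with H3K27ac. The blood marker CD3E had 14 H3K27ac and 59 H3K4me1 fragments. Median summits on the chromosomes that carry the clusters ran from 11 fragments on chromosome 7 to 17 on chromosome 17 for H3K27ac, and from 16 on chromosome 2 to 24 on chromosome 17 for H3K4me1. The part of gene copy number in any depth below was not tested.

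HOX starts carried the marks less often than the genome-wide shares. H3K27ac lay at the start of 9 of 38 HOX genes (23.7%), where the share over 15813 protein-coding genes with a known strand was 61.6%. H3K4me1 lay at 14 HOX starts (36.8%), against 64.2%. These genes use 7 distinct starts with H3K27ac and 12 with H3K4me1, because RefSeq gives HOXC4, HOXC5 and HOXC6 one far upstream start. Each HOX start with H3K27ac also had H3K4me1, whereas 58.8% of all genes had both and 2.76% had H3K27ac alone. A further 5 HOX starts had H3K4me1 alone (5.38% of all genes did), and 24 had neither mark (33% of all genes). Where a start was marked, the median deepest summit was 44 fragments of H3K27ac in HOX genes and 74 in all genes, and 28.5 and 35 fragments of H3K4me1. With the shared HOXC start counted 1 time, the HOX medians were 24 fragments of H3K27ac and 36 of H3K4me1, so that the latter was no longer below the median of all genes.

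Over gene windows the distance from the genome was smaller. H3K27ac reached 24 of 38 HOX windows (63.2%), against 78.4% of all genes, and H3K4me1 reached 29 (76.3%), against 82.2%. Long genes offer more room for a peak. Among the 13244 genes no longer than the longest HOX gene, 73.5% had H3K27ac and 76.1% had H3K4me1 in the window. Neighbouring windows overlap, so that 10 of the 42 H3K27ac peaks and 43 of the 115 H3K4me1 peaks of the clusters were counted for 2 or more genes. All 24 windows with H3K27ac also had H3K4me1 (both marks were in 75.4% of all gene windows). The 9 genes with neither mark in the window, against 14.8% of all genes, were HOXB1, HOXB4, HOXD1, HOXD3, HOXD4, HOXD8, HOXD9, HOXD10 and HOXD11.

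**Figure D1:**
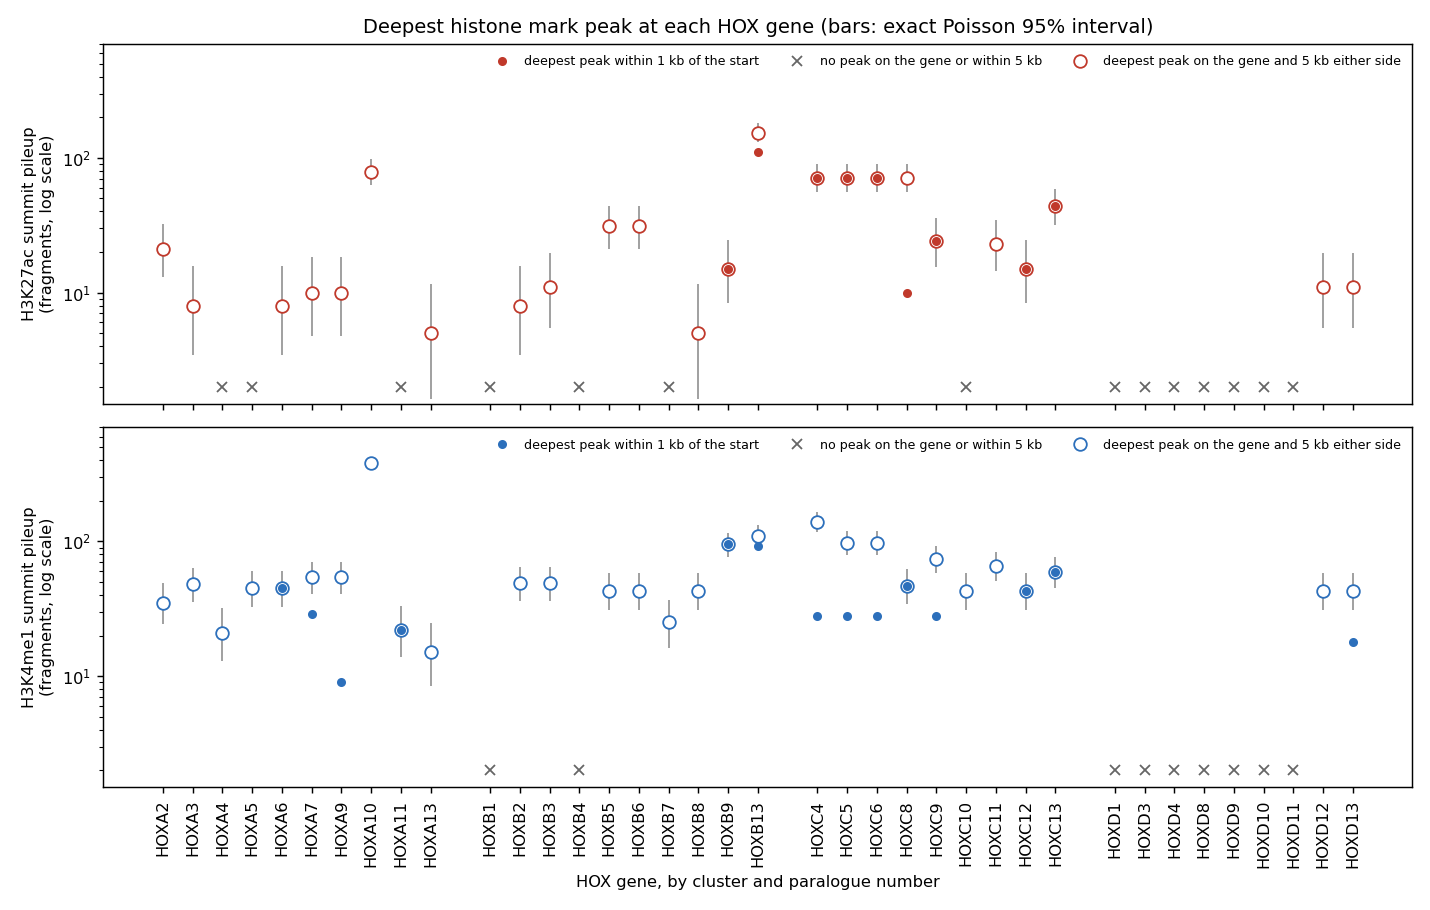
Deepest H3K27ac (top) and H3K4me1 (bottom) summit at each of the 38 HOX genes, in fragments on a log axis. Open circles are the deepest peak on the gene and 5 kb either side with its exact Poisson 95% interval, filled points the deepest within 1 kb of the start, and crosses mark genes with no peak in the window. By window, HOXB13 stands highest for H3K27ac at 154 fragments, in a peak at the start of the neighbouring gene PRAC1. HOXA10 stands highest for H3K4me1 at 382, and 7 of the 9 HOXD genes are crosses in both panels.

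The clusters differed from one another in how much of them was marked. HOXC was the most marked, with 15 H3K27ac and 47 H3K4me1 peaks over 127.2 kb, which cover 4.66% and 10.7% of its length. HOXA had 9 and 27 peaks over 109.7 kb, covering 3.05% and 7.55%. HOXB, the longest at 210.2 kb, had 16 and 34 peaks, covering 2.89% and 3.99%. HOXD had 2 and 7 peaks over 113.4 kb, covering 0.663% and 1.59%. All protein-coding gene windows joined together were covered over 1.44% by H3K27ac and 1.98% by H3K4me1, so HOXA, HOXB and HOXC lay above that level and HOXD below it. The HOX peaks of H3K4me1 were also deep ones, with a median of 30 fragments against 18 in the library.

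HOXC also led at the starts. H3K27ac marked the starts of 7 of 9 HOXC genes, 2 of 10 HOXB genes and none of the 10 HOXA or 9 HOXD genes. H3K4me1 marked 7 HOXC, 4 HOXA, 2 HOXB and 1 HOXD starts. For both marks the HOXC count takes the shared start of HOXC4, HOXC5 and HOXC6 once for each gene. Windows with H3K27ac numbered 8 in HOXC, 7 each in HOXA and HOXB and 2 in HOXD. H3K4me1 was in the windows of every HOXA and HOXC gene used here, of 8 HOXB genes and of 2 HOXD genes.

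**Figure D2:**
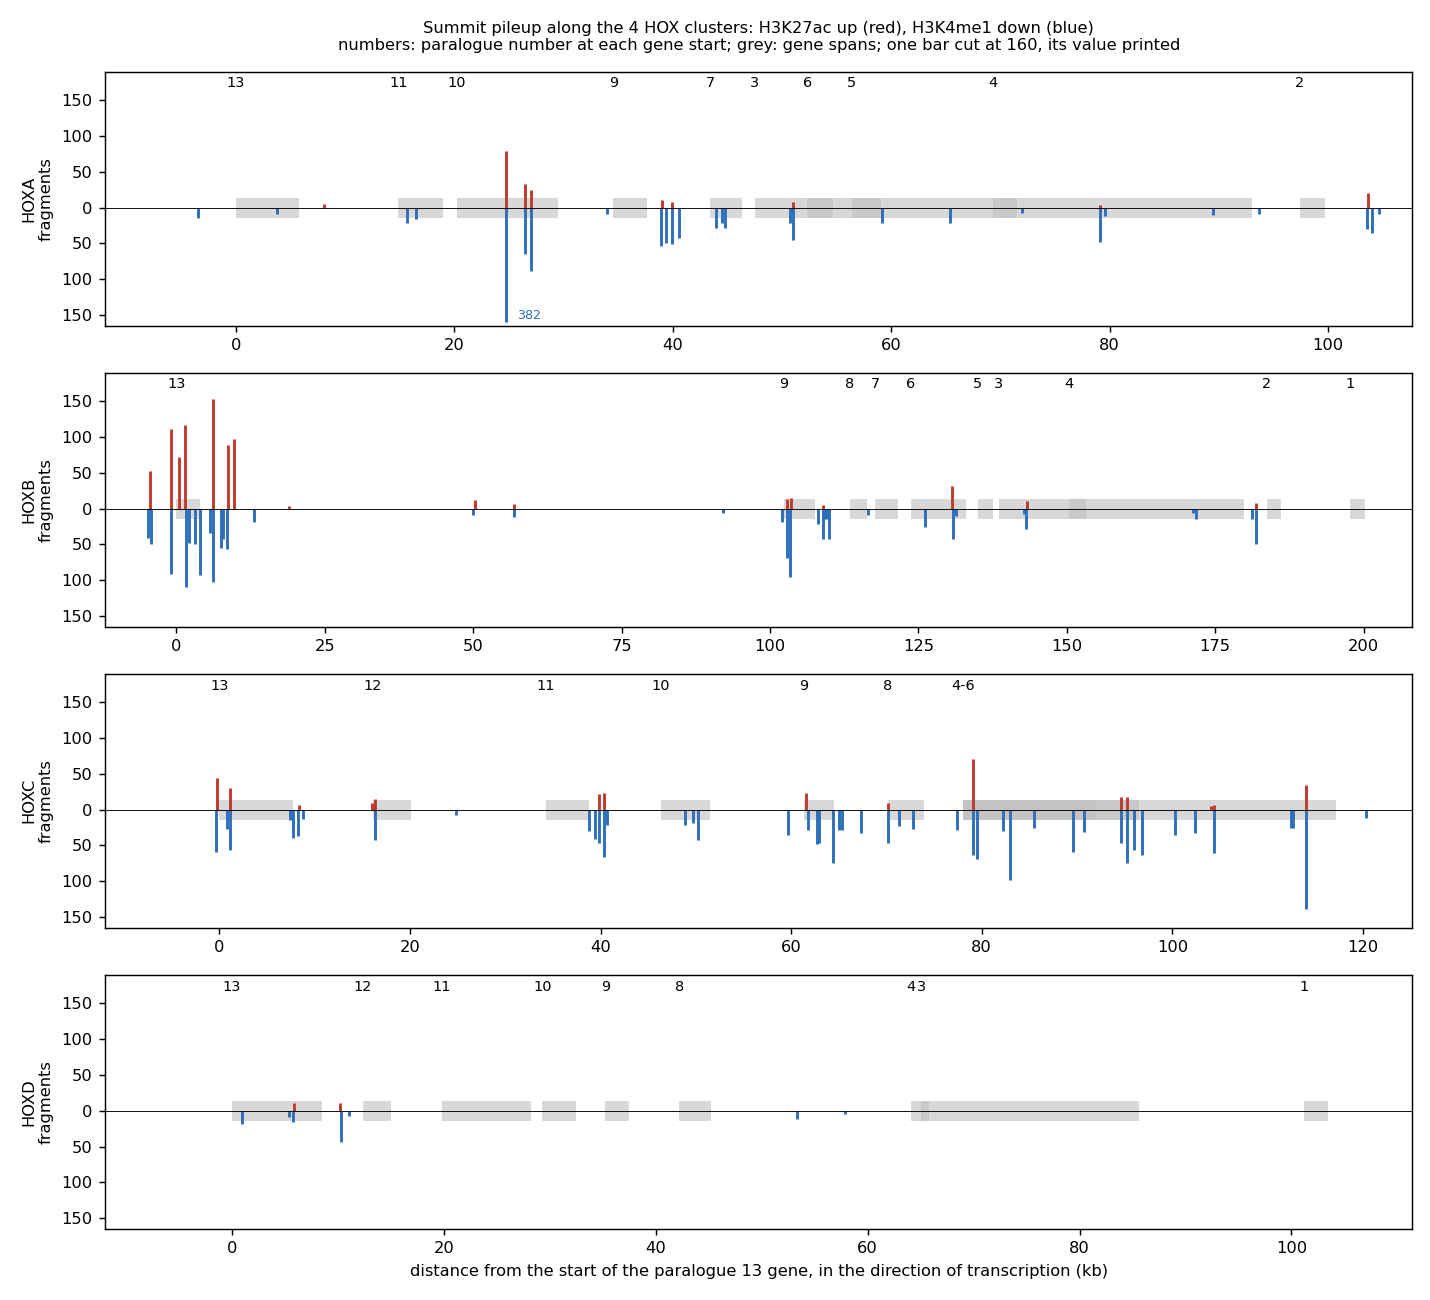
Summit pileup along each cluster, H3K27ac upward in red and H3K4me1 downward in blue, in fragments, against distance in kb from the start of the paralogue 13 gene. Numbers mark gene starts by paralogue and grey boxes the gene spans. HOXC is marked from end to end. HOXB is marked most deeply for H3K27ac in the HOXB13 window, and HOXA most deeply for both marks at HOXA10. HOXD is marked only beside HOXD13 and HOXD12 apart from 2 lone H3K4me1 peaks.

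By paralogue number, the marks were absent from the low end. None of the 7 starts of paralogues 1 to 3, the genes of the hindbrain and neck, had either mark. H3K27ac lay at the starts of 4 of 15 genes of paralogues 4 to 8, all of them in HOXC. Of these, HOXC4, HOXC5 and HOXC6 share a start and its peak, so they are not separate observations. It also lay at 5 of 16 starts of paralogues 9 to 13, the genes of the lower trunk and tail. In the windows the 3 classes had H3K27ac at 4 of 7, 9 of 15 and 11 of 16 genes. Paralogue 13 was the largest group in which each gene had both marks in its window (4 of 4). Its deepest H3K27ac summits in the window were 154 fragments at HOXB13, 44 at HOXC13, 11 at HOXD13 and 5 at HOXA13. Its H3K4me1 summits were 109, 59, 43 and 15. The HOXB13 summit of 154 lay at the start of the neighbouring gene PRAC1. Within 1 kb of the HOXB13 start the deepest held 111 (91.3 to 134). HOXB13 and HOXC13 did not overlap the other genes in their H3K27ac intervals, while those of HOXD13 (5.49 to 19.7) and HOXA13 (1.62 to 11.7) overlapped.

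**Figure D3:**
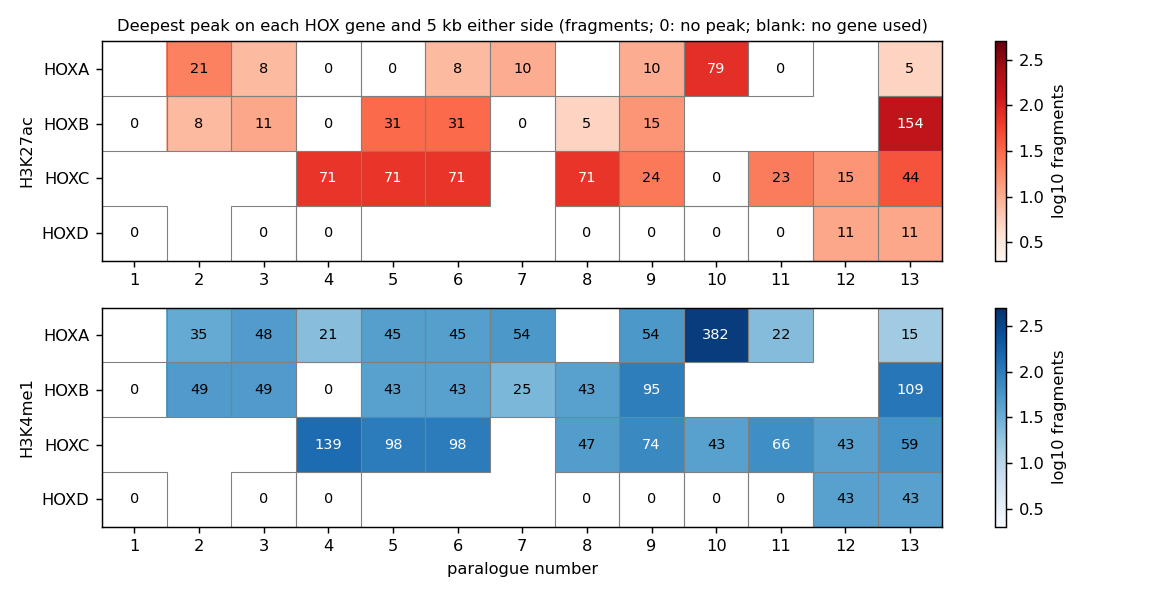
Deepest summit in fragments on each HOX gene and 5 kb either side, for H3K27ac (top) and H3K4me1 (bottom), with clusters in rows and paralogue numbers in columns. Colour follows log10 fragments, 0 means no peak, and blank squares are positions with no gene used. The column of paralogue 13 is filled in all 4 rows for both marks, and paralogue 1 is 0 for both genes.

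HOXB13 had the deepest H3K27ac of the HOX genes. Within 1 kb of its start the deepest summit held 111 H3K27ac fragments (91.3 to 134) at −815 bp (upstream, chr17:48729311-48729650), and only 5.52% of all H3K27ac peaks were as deep. H3K4me1 reached 92 fragments (74.2 to 113) at the same place. At the starts that bound the spans of the other HOX genes, H3K27ac reached at most 71 fragments (55.5 to 89.6). That interval did not overlap the H3K27ac interval of HOXB13. A second listed start, inside HOXA10, had 79 H3K27ac fragments (62.5 to 98.5), which overlapped it. The start itself lay in a separate H3K27ac peak of 72 fragments (chr17:48727865-48728784) that no H3K4me1 peak overlapped. With a start window of 0.5 kb, that peak of 72 fragments was the deepest for H3K27ac and no H3K4me1 peak remained.

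The whole HOXB13 locus was densely marked. Its window of 14.0 kb held 6 H3K27ac and 12 H3K4me1 peaks, which covered 20.2% and 17.9% of it. Downstream of the start a peak of 117 H3K27ac fragments lay in the gene (chr17:48726908-48727282). The deepest of the window, 154 fragments (131 to 180), lay past the gene at the start of PRAC1, a small prostate and colon gene (chr17:48722409-48722709), and 2.31% of H3K27ac peaks were as deep. H3K4me1 reached 103 fragments there. The deposited fold enrichments at these 6 peaks were low for such depth, from 3.13 to 6.37, since the local background the caller used there had a median of 21.0 fragments. By fold in place of depth, HOXB13 (4.85) went from the highest to the lowest of the 9 HOX starts with H3K27ac. HOXC8 was next above it (6.10) and HOXC4 the highest (14.1).

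The marks went on upstream of HOXB13, beyond the cluster. In the 50 kb past its outer end lay 6 H3K27ac peaks of up to 106 fragments and 16 H3K4me1 peaks of up to 143 fragments. Outside the other outer ends the counts were 2 and 4 peaks beyond HOXB1, 0 and 3 beyond HOXA2, 0 and 1 beyond HOXC13, and none of either mark beyond HOXA13, HOXC4, HOXD13 or HOXD1. Joining H3K27ac peaks away from gene ends over short gaps gave 25235 regions, of which 1326 passed the ranking threshold as super-enhancer-like. One of these, rank 339, spanned chr17:48732920-48757130 with 6 H3K27ac and 13 H3K4me1 peaks and lay 4.17 kb from HOXB13. HOXB13 was the only HOX gene with an end within 50 kb of such a region, where 13.5% of all protein-coding genes were. The next HOX gene was HOXB9 at 107 kb from the same region, and the HOXD genes lay at least 3625 kb from any. With peaks joined over only 5 kb, 15 HOX genes of HOXA, HOXB and HOXC were near a region, but 28.2% of all genes were too, and 3945 regions passed.

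**Figure D4:**
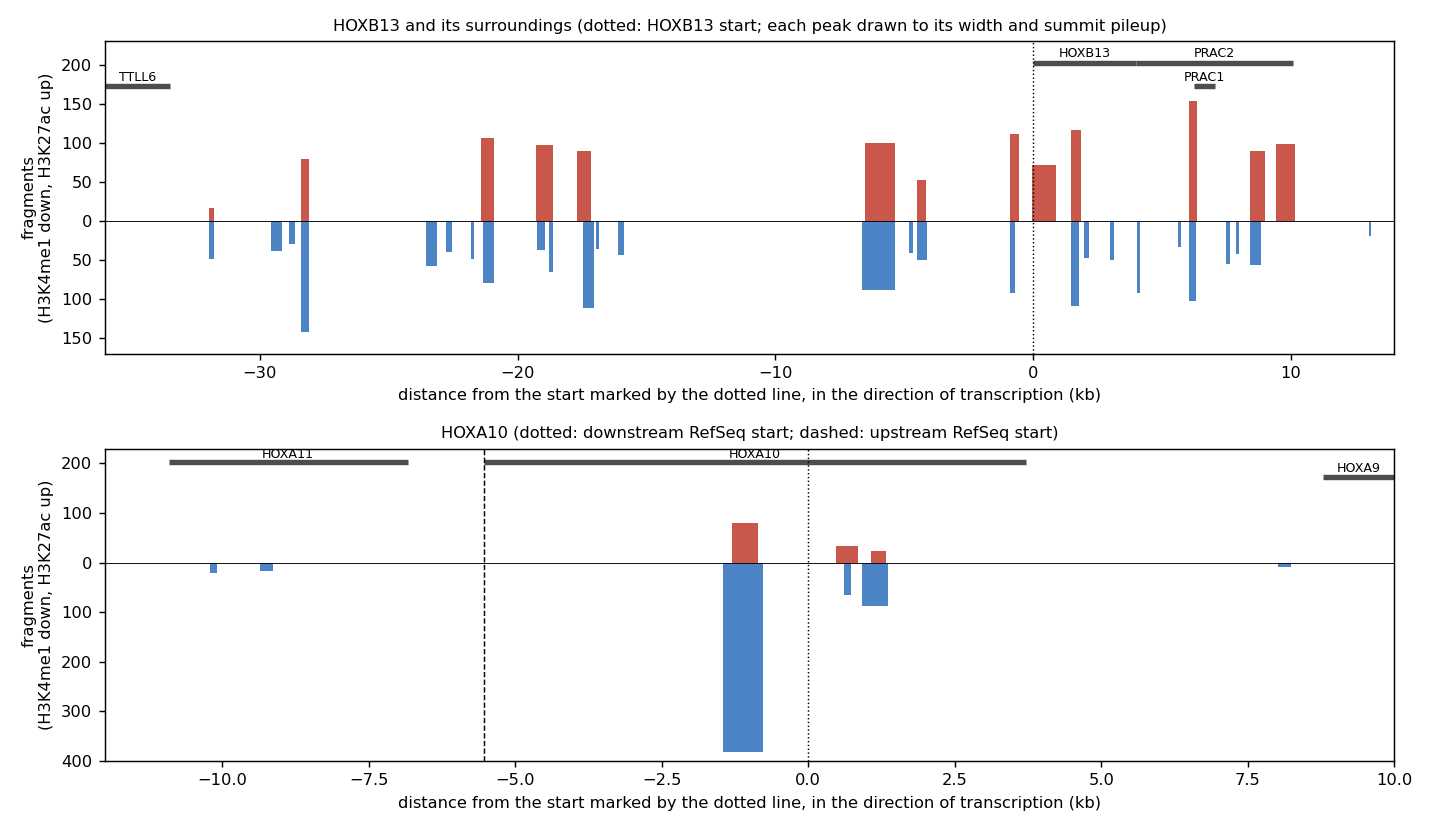
Peaks at HOXB13 (top) and HOXA10 (bottom), each drawn to its width and summit pileup in fragments, H3K27ac upward and H3K4me1 downward, against distance in kb from the dotted start. Bars above mark gene spans, and the dashed line is the upstream start of HOXA10. In the HOXB13 window H3K27ac peaks of 52 to 154 fragments lie on both sides of the start, while at HOXA10 they cluster around the downstream start, where H3K4me1 reaches 382 fragments.

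From HOXB1 to HOXB9, 107.8 kb, H3K27ac was shallow and H3K4me1 more frequent. The 6 H3K27ac peaks held at most 31 fragments and covered 1.54%, near the 1.44% of all gene windows. The 18 H3K4me1 peaks covered 4.70%, above the 1.98% of all gene windows. HOXB9, a posterior gene, was the other HOXB start with H3K27ac, at 15 fragments (8.40 to 24.7), beside 95 fragments of H3K4me1 (76.9 to 116). That H3K4me1 summit was about as deep as the one at the HOXB13 start, with overlapping intervals, while the H3K27ac intervals of the 2 genes did not overlap. HOXB5 and HOXB6, central genes, shared a peak with 31 H3K27ac and 43 H3K4me1 fragments inside HOXB6 (chr17:48597692-48598197 for H3K27ac), away from both starts. The starts of HOXB1, HOXB2, HOXB3, HOXB4, HOXB5, HOXB6, HOXB7 and HOXB8 had neither mark, and HOXB7 had only H3K4me1 in its window (25 fragments). Between HOXB9 and HOXB13, 88.4 kb with no HOX gene, there were 4 peaks of each mark. The deepest of them, 98 H3K27ac fragments, lay at the HOXB13 end on the start of PRAC2, another neighbouring gene.

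HOXA10, a posterior gene of the reproductive tract and blood, carried the deepest H3K4me1 of all HOX genes, but not at the start that bounds its span. RefSeq lists 2 HOXA10 starts. The upstream one had no H3K27ac peak within 4233 bp and no H3K4me1 peak within 3597 bp. The downstream one was flanked by 382 H3K4me1 fragments (345 to 422, chr7:27175091-27175772), a depth that only 17 of all H3K4me1 peaks reached (0.0122%). H3K27ac at the same place was 79 fragments (62.5 to 98.5, chr7:27175176-27175628), a depth reached by 10.5% of H3K27ac peaks. On the other side of that start lay H3K27ac summits of 33 and 24 fragments and H3K4me1 summits of 65 and 88. Counting any listed start, which was chosen after the values were seen, 11 of 38 HOX genes had H3K27ac and 16 had H3K4me1, beside 64.8% and 67.5% of all genes. The 3 H3K27ac peaks of HOXA10 joined into a region of rank 2891, short of the super-enhancer-like threshold.

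The promoters that these comparisons turn on are given here from RefSeq (GRCh38.p14), from 250 bases before to 50 after the start, 5 prime to 3 prime on the strand of the gene, with CpG dinucleotides in capitals. The set holds both HOXA10 starts, the shared HOXC4 and HOXC5 start, the one listed HOX promoter that a peak overlapped (HOXD13) and an unmarked HOXD promoter of like CpG content (HOXD11). The windows are chr7:27174271-27174570, chr7:27179812-27180111, chr12:54016638-54016937, chr2:176092471-176092770 and chr2:176107030-176107329.
HOXA10 downstream start: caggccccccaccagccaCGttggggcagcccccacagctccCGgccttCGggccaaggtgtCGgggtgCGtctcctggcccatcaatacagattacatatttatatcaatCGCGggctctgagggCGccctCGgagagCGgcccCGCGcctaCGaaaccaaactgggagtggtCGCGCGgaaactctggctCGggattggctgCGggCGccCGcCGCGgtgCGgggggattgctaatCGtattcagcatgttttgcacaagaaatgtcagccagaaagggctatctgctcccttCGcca
HOXA10 upstream start: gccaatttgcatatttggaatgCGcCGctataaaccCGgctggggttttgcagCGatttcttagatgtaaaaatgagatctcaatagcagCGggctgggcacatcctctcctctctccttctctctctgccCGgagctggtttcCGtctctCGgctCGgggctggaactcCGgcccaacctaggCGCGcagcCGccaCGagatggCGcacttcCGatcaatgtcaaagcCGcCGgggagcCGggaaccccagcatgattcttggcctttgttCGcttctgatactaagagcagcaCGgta
HOXC4 and HOXC5 start: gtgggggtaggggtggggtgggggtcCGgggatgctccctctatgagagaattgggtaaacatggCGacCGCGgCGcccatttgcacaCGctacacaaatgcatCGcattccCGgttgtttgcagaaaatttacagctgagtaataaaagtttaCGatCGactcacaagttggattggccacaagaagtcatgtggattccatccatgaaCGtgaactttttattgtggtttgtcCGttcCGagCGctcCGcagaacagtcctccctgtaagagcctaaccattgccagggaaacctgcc
HOXD13 start: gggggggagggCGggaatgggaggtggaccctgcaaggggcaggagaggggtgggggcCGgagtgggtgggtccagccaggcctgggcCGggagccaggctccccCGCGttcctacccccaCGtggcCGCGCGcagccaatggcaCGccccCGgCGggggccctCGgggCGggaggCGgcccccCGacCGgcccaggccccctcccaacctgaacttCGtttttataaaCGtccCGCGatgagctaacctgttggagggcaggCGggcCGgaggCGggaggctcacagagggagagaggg
HOXD11 start: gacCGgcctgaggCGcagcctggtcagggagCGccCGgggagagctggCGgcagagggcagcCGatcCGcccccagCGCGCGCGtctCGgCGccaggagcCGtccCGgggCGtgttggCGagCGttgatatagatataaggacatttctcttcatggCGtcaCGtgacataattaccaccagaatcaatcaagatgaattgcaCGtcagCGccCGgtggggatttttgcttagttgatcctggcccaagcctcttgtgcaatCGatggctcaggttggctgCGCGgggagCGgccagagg

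The table held 27 promoters for 20 of the 38 HOX genes, at 26 distinct positions. The genes it lacks include 7 of the 9 with H3K27ac at the start, and 4 of these, HOXB13, HOXC8, HOXC12 and HOXC13, had a peak of at least 1 mark on the start base itself. Counts over the listed promoters therefore leave out most marked HOX starts. No H3K27ac peak and 1 H3K4me1 peak (9 fragments at HOXD13) overlapped any of the 26. Over 34789 listed promoters the shares were 42.1% and 42.5%. At the downstream HOXA10 start and the HOXC4 start the peaks lay to the side of the window shown. The 2 HOXA10 windows held 25 CpGs (downstream, flanked by peaks) and 21 (upstream, unmarked), the HOXC4 window 15, HOXD13 24 and HOXD11 27. The median was 22 over the HOX promoters and 14 over all 35116. Searched on both strands, CAATAAA, the posterior HOX type motif, was in 4 HOX promoters (4.00% of all promoters), counting the shared HOXC4 and HOXC5 window 2 times. The forkhead type motif TGTTTAC was in 2 (3.42% of all), which are that same shared window, and the TATA box letters TATAAA were in 5 (11.5% of all). Both HOXA10 windows and the HOXD13 window held TATAAA. A match is only a match of letters in this window.

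Elsewhere in HOXA the marks were H3K4me1 with little H3K27ac. The starts of HOXA6, HOXA7, HOXA9 and HOXA11 had H3K4me1 alone, at 45, 29, 9 and 22 fragments. HOXA2, HOXA3, HOXA4, HOXA5, HOXA10 and HOXA13 had neither mark at the start of their span. The RefSeq span of HOXA3 begins beside HOXA7 and runs over HOXA4, HOXA5 and HOXA6, so their peaks count for it as well. Between HOXA7 and HOXA9, a chain of H3K4me1 peaks reached 54 fragments, while H3K27ac there reached 10 (4.80 to 18.4). The 21 H3K27ac fragments in the HOXA2 window lay at the end of HOTAIRM1, a noncoding RNA of the anterior side of HOXA (chr7:27095702-27096672), rather than at HOXA2, 6011 bp away.

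HOXC was the cluster in which both marks lay at most starts. The shared start of HOXC4, HOXC5 and HOXC6 had 71 H3K27ac fragments (55.5 to 89.6) with the summit 1073 bp into the genes, and 28 H3K4me1 fragments upstream. Because that peak began 750 bp from the start, these 3 genes lost H3K27ac with a start window of 0.5 kb. HOXC13, a gene of skin, hair and nail, had 44 H3K27ac (32.0 to 59.1) and 59 H3K4me1 fragments (44.9 to 76.1), the first in a peak on its start and the second in a peak 42 bp away. HOXC9 had 24 and 28 fragments, HOXC12 15 and 43, and HOXC8 10 and 47. HOXC4, a central gene, had the second deepest H3K4me1 of the HOX genes, 139 fragments (117 to 164) 35970 bp past the listed start, with 34 of H3K27ac. The starts of HOXC10 and HOXC11 had neither mark. HOXC10 had H3K4me1 of up to 43 fragments and no H3K27ac in its window, while peaks of 22 and 23 H3K27ac fragments lay just past the end of HOXC11.

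HOXD was almost bare. HOXD13, a gene of digits and the urogenital tract, had 18 H3K4me1 fragments (10.7 to 28.4) within 1 kb of its span start, and no H3K27ac there. The 2 H3K27ac peaks of the cluster held 11 fragments each (5.49 to 19.7), one in HOXD13 and one between HOXD13 and HOXD12, the latter beside 43 fragments of H3K4me1. HOXD1, HOXD3, HOXD4, HOXD8, HOXD9, HOXD10, HOXD11 and HOXD12 had neither mark at the start. HOXD1 lay 80637 bp from the nearest H3K27ac peak. The listed start of HOXD13 inside its span had 11 H3K27ac and 16 H3K4me1 fragments within 1 kb.

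Most H3K27ac peaks of the clusters overlapped H3K4me1, and most H3K4me1 peaks overlapped no H3K27ac. Of 42 H3K27ac peaks 38 overlapped an H3K4me1 peak (90.5%, exact Clopper-Pearson 95% interval 77.4 to 97.3), where 73.6% of all other H3K27ac peaks did. At 40 fragments and over the order was the other way, 8 of 10 HOX peaks (80.0%, 44.4 to 97.5) against 96.4%. Of the 4 HOX peaks without overlap, 1 of 72 fragments lay on the HOXB13 start and 1 of 98 fragments on the PRAC2 start. The others were 1 of 5 fragments at HOXA13 and 1 of 4 fragments between HOXB9 and HOXB13. Of 115 H3K4me1 peaks 41 overlapped H3K27ac (35.7%, 26.9 to 45.1), close to the 38.1% elsewhere. Deep peaks overlap more often, and HOX peaks were deep. Among H3K4me1 peaks of 20 to 39 fragments, 6 of 34 HOX peaks overlapped H3K27ac (17.6%, 6.76 to 34.5), and 47.2% of the other peaks did. At 40 fragments and over the shares were 66.7% (51.6 to 79.6) and 77.6%. Neighbouring peaks are not independent, so these intervals are too narrow for a statement about clusters in general.

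**Figure D5:**
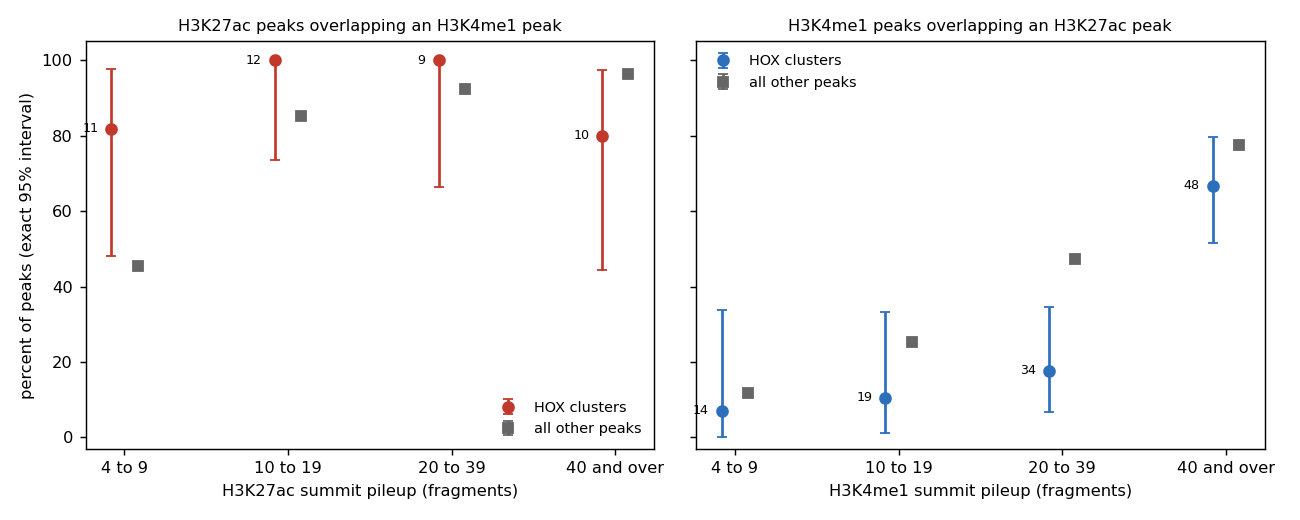
Percent of peaks that overlap a peak of the other mark, by summit pileup, for H3K27ac peaks (left) and H3K4me1 peaks (right), with exact 95% intervals. Round points are HOX peaks, with their number beside them, and grey squares all other peaks. In the right panel the HOX point at 20 to 39 fragments, 17.6%, lies below the 47.2% of other peaks.

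The clusters also hold noncoding RNAs. Of 24 listed, 5 had H3K27ac and 8 had H3K4me1 at the start, or at either end for the 7 without a strand, beside 61.6% and 64.2% of protein-coding genes. The share over all noncoding genes was not computed. The deepest H3K27ac was 44 fragments at HOXC13-AS, 24 at HOXC-AS1, 21 at HOTAIRM1 and 18 at MIR615. HAGLR and HAGLROS, in HOXD, had neither mark. The mature microRNAs named here are shown with the seed, bases 2 to 8, in capitals (RefSeq).
hsa-miR-196a-5p: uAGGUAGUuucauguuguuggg
hsa-miR-196b-5p: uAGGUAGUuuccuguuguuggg
hsa-miR-10a-5p: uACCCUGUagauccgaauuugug
hsa-miR-615-3p: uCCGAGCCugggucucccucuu
The miR-196 family, which targets HOX transcripts, has one seed, AGGUAGU, shared by copies in HOXA, HOXB and HOXC. MIR196B lay 3433 bp, MIR196A1 6469 bp and MIR196A2 8451 bp from the nearest H3K27ac peak. MIR615, inside the HOXC5 span, was the only one of the 6 listed microRNA genes whose hairpin an H3K27ac peak overlapped. MIR10A lay 5361 bp and MIR10B 52491 bp from the nearest.

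Of the genes that act with or on HOX genes, all lists but the caudal genes were marked at most starts. The TALE homeobox proteins bind DNA together with HOX proteins, and 6 of 9 of their genes had H3K27ac at the start and 8 had H3K4me1. PKNOX1 had 215 H3K27ac fragments, PBX2 91 and PBX4 43, while MEIS1 and MEIS2 had none there. All 9 trithorax-side genes had H3K27ac, led by RBBP5 (259 fragments), KDM6A (134), KMT2A (124) and ASH2L (109). All 15 Polycomb-side genes had both marks, with CBX8 at 188 H3K27ac fragments, EED at 160, RBBP4 at 142 and EZH1 at 137. The 7 boundary genes, such as SMC3 (127 fragments) and STAG2 (125), also had both. Of the 3 caudal genes, which switch on posterior HOX genes in the embryo, only CDX1 had H3K27ac (7 fragments) at the start or either end. CDX2 and CDX4 had neither mark at the start. The window of CDX2 held 3 H3K27ac and 4 H3K4me1 peaks, and that of CDX4 held none. These counts stand beside 61.6% of all genes with H3K27ac and 64.2% with H3K4me1 at the 5 prime end. No test was made of them. For genes without a strand, a peak at either end was counted, which gives more room for a peak. These were 2 TALE, 1 caudal, 2 trithorax-side, 3 Polycomb-side and 1 boundary gene, with ASH2L, CBX8 and CDX1 among them.

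Among protein-coding neighbours of the clusters the share was near that of all genes. H3K27ac lay at 11 of 16 starts, or at either end for the 5 without a strand, beside 61.6% of all genes. The deepest were 179 fragments at SNX11, 159 at CBX5, 154 at PRAC1 and 106 at ATP5MC3. EVX1, a homeobox gene past HOXA13, and ATP5MC2 had neither mark at the start. The window of EVX1 held no peak either, while that of ATP5MC2 held 1 H3K27ac and 2 H3K4me1 peaks. MTX2, on the far side of HOXD1, had 60 H3K27ac fragments at its start.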

How the data were processed

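Peak lists were used as deposited, 1 per library. BWA, MACS2 and hg38 are named in the submitters' processing notes, and versions, settings and any background library are not given in the sources used here. The labels name an anti-mouse secondary antibody for both libraries, and its effect was not tested. The deposited score equals 10 times −log10 q without its decimals, except at 4 H3K27ac and 7 H3K4me1 peaks. The deposited fold is the ratio of summit signal to local background, and the deposited −log10 p and −log10 q belong to the summit. Both lists reach a q-value just under 0.05 per the deposited values, with a highest q of 0.0499 for H3K27ac and 0.0488 for H3K4me1. Sequencing depth is unknown, so pileups were solved from fold and p and came out whole for 100% of peaks, to a tolerance of 0.001 on the −log10 p scale (relative 0.0001). The step was tested on simulated data.

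Of the deposited peaks, 64784 of 64850 (H3K27ac) and 139511 of 139692 (H3K4me1) lay on the 22 autosomes and X and were kept. Peaks overlapped when they shared 1 bp. Super-enhancer-like regions were built after leaving out H3K27ac peaks that lie whole inside 2.5 kb of a protein-coding gene end. The rest were joined over 12.5 kb, ranked by fold times length, with the threshold at slope 1. Strand came from the RefSeq promoter table. Within each HOX cluster all genes were given the strand of its listed genes. Named genes were HOXB13, the 3 deepest H3K27ac starts of each cluster, the starts with neither mark, and up to 4 marked and 2 unmarked genes of each list. Other genes named were chosen after their values were seen. HOX members, lists and rules were chosen with earlier results of these data known. Python 3.11.15, numpy 2.4.6, pandas 2.3.3 and scipy 1.17.1 were used.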

Additional observations from a re-analysis of the deposited data

How the results depend on the processing

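Of the recomputed values of the main results, 72 stayed within the set limits (a count within 1.5 times, a pileup within its interval) and 8 moved. With a start window of 0.5 kb, HOXB13 had 72 H3K27ac and 0 H3K4me1 fragments, and 6 HOX genes had H3K4me1 at the start. Without a flank, 14 HOX genes had H3K27ac. With at least 10 fragments at the summit, HOXA had 5 H3K27ac peaks and HOXD 4 H3K4me1 peaks, and HOXD also had 4 with a −log10 q of at least 5. With H3K27ac peaks joined over 5 kb, 15 HOX genes were near a super-enhancer-like region. These follow from the smaller windows, fewer peaks or shorter joins. Of the recomputed values for single genes, 406 stayed and 38 moved. Depth limits the weak peaks: 26.2% of HOX H3K27ac and 12.2% of HOX H3K4me1 peaks had under 10 fragments. No paired analysis was possible because each antibody had 1 library.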
